A study of Homo sapiens with 12 samples.

Results

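WT-NPC-P4 cells were compared with WT-D28 cells, 2 samples against 2, out of the 12 samples of the series. The members were taken by label: the samples named for WT NPCs at passage 4 and the samples named for WT cells at day 28. All samples come from H1, an established human ESC line. NPCs had been made from H1 ESCs by dual SMAD inhibition with SB431542 and dorsomorphin, and picked as rosettes. The passage 4 NPCs were kept as neural spheres in N2B27 medium with bFGF and EGF. The D28 cells had been seeded on Matrigel as passage 2 NPCs and cultured for 28 days in N2B27 with GDNF, BDNF and cAMP, without the mitogens. The pair therefore differed in medium, in attachment and in time, and WT-D28 did not descend from WT-NPC-P4. The other groups, used here only where stated, were WT NPCs (passage 2 by the study's methods, no passage in the labels) and 3 dKO groups of the same stages, in which the catalytic part of both UTX (KDM6A) and JMJD3 (KDM6B) had been deleted in H1. Both WT groups were H1 without this deletion. The labels do not say whether replicates came from separate cultures, so the p-values measure the spread between these samples, which may be technical, and a group may also be a batch, as these cannot be told apart.

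The forebrain is patterned along its dorsal and ventral sides. In the dorsal telencephalon, radial glia expressing PAX6 and EMX genes give rise, through NEUROG2 and EOMES, to TBR1- and NEUROD-positive neurons that use glutamate. In the ventral telencephalon and hypothalamus, Hedgehog signalling induces NKX2-1, and DLX genes then direct progenitors to a GABAergic fate, with LHX6 and LHX8 marking neurons of the medial ganglionic eminence and SST a peptide that many of them release. The repressor form of GLI3 restrains the ventral programme dorsally.

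The files list 58302 genes, of which 13454 averaged 20 counts or more across the 12 samples and were tested. Total counts were 3174410 and 4220037 in WT-NPC-P4 and 8813561 and 10601172 in WT-D28, so that 3 counts were worth 1.00 and 0.771 CPM in the former and 0.360 and 0.302 CPM in the latter. CPM stands for counts scaled to library size and TMM factor. Floors and intervals cover counting error only. A gene was called at an adjusted p below 0.05 in the quasi-likelihood test of edgeR, adjusted by Benjamini-Hochberg over all tested genes (written below as edgeR adjusted p), and a fold change above 2. Of the tested genes, 977 (7.26%) were called higher in WT-NPC-P4 and 1102 (8.19%) higher in WT-D28, 2079 (15.5%) in all. Every count of called list members below is to be read beside these shares, 7.26% for WT-NPC-P4 and 8.19% for WT-D28. Above a fold of 16 there were 68 genes higher in WT-NPC-P4 and 32 higher in WT-D28. The values of the groups did not overlap for 10489 genes (78.0%), so a lack of overlap was common and carries little on its own. An exact permutation test of 2 samples against 2 cannot go below p = 0.333, and each call therefore draws on spread estimated jointly over genes and groups. In simulated counts, this comparison recovered 28% of changes of 2-fold and 94% of changes of 4-fold. The 28% is limited by the call rule itself, which needs an estimated fold above 2. The median estimated log2 size of the simulated 2-fold changes was 0.96. Bulk RNA cannot tell fewer cells of a type from less RNA per cell.

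Both cultures expressed general neuronal genes, although the passage 4 cells are labelled progenitors, and few of these genes differed by over 2-fold. Of 23 tested pan-neuronal genes, 0 were called higher in WT-NPC-P4 and 3 higher in WT-D28. The median log2 difference was -0.26 (SD between replicates 0.03) against -0.00 over all genes. Here and below, this SD is the root of the summed variances, within each group, of the list median per sample. At an unadjusted p below 0.05 without a fold threshold, 3 pan-neuronal genes were higher in WT-NPC-P4 and 5 in WT-D28, and DESeq2 also called 0 higher in WT-NPC-P4. MAP2, a dendritic microtubule protein, had 1645 and 1894 CPM in WT-NPC-P4 and 1141 and 1112 CPM in WT-D28, with 416 and 405 CPM in passage 2 WT NPCs. MAP2 differed by 0.65 on the log2 scale (standard error 0.17, edgeR adjusted p = 0.00796). STMN2, a tubulin regulator of growing axons, had 1026 and 1073 CPM in WT-NPC-P4 and 1250.1 and 1287 CPM in WT-D28 and 295 and 247 CPM at passage 2. The STMN2 log2 difference was -0.27 (standard error 0.25, edgeR adjusted p = 0.422). Both genes were thus above their passage 2 values in every sample of WT-NPC-P4 and WT-D28. Of the 3 called genes, CELF4, a neuronal RNA-binding protein, had 44.4 and 51.1 CPM in WT-NPC-P4 and 272 and 276 CPM in WT-D28. CELF4 differed by -2.51 on the log2 scale (standard error 0.22, edgeR adjusted p = 1.51e-06). The others were L1CAM, at -1.03 (standard error 0.20, edgeR adjusted p = 0.00152), and CELF3, at -1.5 (standard error 0.37, edgeR adjusted p = 0.0163). Leaving out WT-D28 replicate 1 left L1CAM at -0.99 and under the fold threshold, and CELF3 lost its call when any 1 of the 4 samples was left out, so the count fell to 1 without WT-D28 replicate 1. Per kilobase of exonic length, on the RPKM scale, MAP2 stood at 149 in WT-NPC-P4 and 95.1 in WT-D28, and STMN2 at 514 and 621.

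Cell cycle genes were higher in the culture labelled as progenitors. Of 96 tested S and G2/M phase genes, 64 were called higher in WT-NPC-P4 and 0 higher in WT-D28, the median was 1.29 (SD between replicates 0.04), and all 96 log2 differences were positive. With an unadjusted p below 0.05 at any fold, 85 were higher in WT-NPC-P4 and 0 in WT-D28, and DESeq2 likewise called 0 higher in WT-D28. MKI67, the Ki-67 proliferation antigen, had 531 and 648 CPM in WT-NPC-P4 and 109.7 and 116 CPM in WT-D28. The MKI67 log2 difference was 2.38 (standard error 0.14, edgeR adjusted p = 2.38e-09). CENPF, a kinetochore protein of G2 and mitosis, had 477 and 558 CPM in WT-NPC-P4 and 97.9 and 99.0 CPM in WT-D28. CENPF differed by 2.39 on the log2 scale (standard error 0.15, edgeR adjusted p = 1.26e-08). Neither pair of samples overlapped with the other, and MKI67 at passage 2 had 548 and 556 CPM, near WT-NPC-P4. PCNA, the sliding clamp of DNA replication, had 158 and 138 CPM in WT-NPC-P4 and 78.6 and 84.7 CPM in WT-D28 and did not reach the fold threshold. The PCNA log2 difference was 0.86 (standard error 0.13, edgeR adjusted p = 5.85e-05). The summed level of the list was 10004 and 10803 CPM in WT-NPC-P4 and 4790 and 4873 CPM in WT-D28. The part of cycling cells in the other differences was not tested.

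Among 28 radial glia and progenitor genes, 12 were higher in WT-NPC-P4 and 1 higher in WT-D28, with a median of 0.68. SOX2, which maintains neural progenitors, was under the fold threshold, with 491 and 515 CPM in WT-NPC-P4 and 412 and 409 CPM in WT-D28. VIM, an intermediate filament of radial glia, had 4105 and 4079.6 CPM in WT-NPC-P4 and 2562 and 2584 CPM in WT-D28. VIM differed by 0.67 on the log2 scale (standard error 0.13, edgeR adjusted p = 0.000804). SLC1A3, a glial glutamate transporter, had 1781 and 1946 CPM in WT-NPC-P4 and 265 and 267 CPM in WT-D28 and 106 and 82.7 CPM at passage 2. The SLC1A3 log2 difference was 2.81 (standard error 0.15, edgeR adjusted p = 1.29e-09). HOPX, a marker of outer radial glia, had 215 and 208 CPM in WT-NPC-P4 and 10.1 and 7.95 CPM in WT-D28 and 0 and 1.49 CPM at passage 2. HOPX differed by 4.55 on the log2 scale (standard error 0.20, edgeR adjusted p = 2.80e-10). SLC1A3 and HOPX were thus highest in WT-NPC-P4 among the 3 WT groups, without overlap. PTPRZ1, a receptor phosphatase of the same cells, had 3392 and 3792 CPM in WT-NPC-P4 and 1003 and 979 CPM in WT-D28. The PTPRZ1 log2 difference was 1.86 (standard error 0.34, edgeR adjusted p = 0.00396). SOX3 was the member higher in WT-D28, at -1.63 (standard error 0.19, edgeR adjusted p = 1.79e-05), and fell under the fold threshold once GC content and gene length were corrected for, at -0.86. HES1, a Notch effector, was also higher in WT-D28 in its values (51.1 and 52.9 CPM in WT-NPC-P4 and 95.2 and 98.1 CPM in WT-D28) but under the fold threshold.

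The largest differences lay in the genes of cortical excitatory neurogenesis. Of 24 tested genes of cortical excitatory neurons and their precursors, 19 were called higher in WT-NPC-P4 and 0 higher in WT-D28, with a median log2 difference of 3.43 (SD between replicates 0.19). Beside this, 7.26% of all tested genes were called higher in WT-NPC-P4. The list was chosen with earlier results of these data known, so its share describes the list and is no test. By edgeR at an unadjusted p below 0.05 and any fold, 1 member, TLE4, was higher in WT-D28, and DESeq2 called 0. Promoter sequence is shown for its bHLH members NEUROD6 and NEUROD2, which had no or nearly no counts in WT-D28. These are the bases before the RefSeq start (GRCh38.p14, minus strand, 5′ to 3′), chr7:31340727-31340846 for NEUROD6 and chr17:39607921-39608070 for NEUROD2, with the letters CAGATG, an E-box that proneural bHLH proteins are known to bind, in capitals:
NEUROD6: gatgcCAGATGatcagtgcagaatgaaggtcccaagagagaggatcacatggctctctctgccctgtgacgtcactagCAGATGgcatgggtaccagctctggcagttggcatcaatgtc
NEUROD2: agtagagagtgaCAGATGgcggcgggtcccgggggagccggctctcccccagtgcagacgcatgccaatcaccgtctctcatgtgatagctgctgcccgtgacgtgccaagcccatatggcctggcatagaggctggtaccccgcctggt
The E-boxes of NEUROD6 began 115 and 42 bases before the start and that of NEUROD2 138 bases before it. Searched on both strands (CATCTG on the other) over the 250 bases before the start, CAGATG was found in 12.2% of 27305 RefSeq promoters, in 7.75% of tested genes, in 8.50% of genes called higher in WT-NPC-P4, in 11.4% of those called higher in WT-D28 and in 4 of the 20 cortical genes with a promoter in the table, the others being FOXP2 and NFIB. The NEUROD6 window also holds tgacgtca, in lower case above, 54 to 47 bases before the start. A match describes letters and not a bound site.

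NEUROG2 (ENSG00000178403, chr4:112513516-112516180, minus strand), the proneural factor that commits dorsal progenitors to the glutamatergic fate, had 163 and 152 CPM in WT-NPC-P4, 0.12 and 0 CPM in WT-D28 and 1.31 and 1.49 CPM in passage 2 WT NPCs. The ratio of counts per library size was 2865 (95% counting interval 513 to 113278), since WT-D28 held 1 count in all, and edgeR adjusted p was 3.58e-11. Its relative NEUROG1 had 24.7 and 27.5 CPM in WT-NPC-P4 and 0.12 and 0.101 CPM in WT-D28, a ratio of 240.1 (95% counting interval 65.5 to 1998). Both were at or below the counting floor in WT-D28, and on the RPKM scale NEUROG2 was the more abundant of the pair in WT-NPC-P4 (68.6 against 15.5). EOMES (ENSG00000163508, chr3:27715949-27722711, minus strand), the T-box factor of intermediate progenitors, had 402 and 413 CPM in WT-NPC-P4 and 0.6001 and 0.503 CPM in WT-D28. EOMES differed by 9.46 on the log2 scale (standard error 0.19, edgeR adjusted p = 8.12e-15). Intermediate progenitors divide to give neurons, and the next T-box factor, TBR1 (ENSG00000136535, chr2:161416297-161425870, plus strand), is switched on in their early-born deep-layer daughters. TBR1 had 246 and 268 CPM in WT-NPC-P4 and 0.12 and 0.402 CPM in WT-D28 and 6.53 and 3.73 CPM at passage 2. The TBR1 log2 difference was 9.72 (standard error 0.32, edgeR adjusted p = 4.74e-12). For these 4 genes the lowest WT-NPC-P4 value was above the highest WT-D28 value.

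NEUROD6 (ENSG00000164600, chr7:31337465-31340726, minus strand), a bHLH factor of differentiating cortical neurons, had 365 and 379 CPM in WT-NPC-P4 and 0 counts in both WT-D28 samples and both passage 2 samples. Against a floor of 3 counts per library it was at least 1033-fold higher in WT-NPC-P4 (edgeR adjusted p = 9.90e-11). SLA (ENSG00000155926), an adaptor protein first described in immune cells, was likewise at 0 in WT-D28 and at 188 and 172 CPM in WT-NPC-P4, at least 499.7-fold higher (edgeR adjusted p = 6.62e-10). NEUROD2, a related bHLH factor, had 267 and 256 CPM in WT-NPC-P4 and 0.4801 and 0.402 CPM in WT-D28. NEUROD2 differed by 9.12 on the log2 scale (standard error 0.23, edgeR adjusted p = 4.68e-11). BHLHE22, a bHLH repressor of cortical area identity, had 118 and 128 CPM in WT-NPC-P4 and 0 and 0.101 CPM in WT-D28, a ratio of 2255 (95% counting interval 404 to 89176). All 4 were nearly absent from WT-D28, and NEUROD1, which did not reach the count filter, had 151 counts over both WT-NPC-P4 samples and 0 over both WT-D28 samples. On the RPKM scale in WT-NPC-P4, NEUROD6 stood highest of the 5 factors compared, at 189.9, followed by EOMES at 111, NEUROG2 at 68.6, NEUROD2 at 41.9 and TBR1 at 27.3.

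The vesicular glutamate transporters, which define the glutamatergic transmitter phenotype, followed. SLC17A7 (VGLUT1) had 70.8 and 69.1 CPM in WT-NPC-P4 and 0.12 and 0.302 CPM in WT-D28. The SLC17A7 log2 difference was 8.13 (standard error 0.60, edgeR adjusted p = 2.34e-06). SLC17A6 (VGLUT2) had 27.7 and 26.97 CPM in WT-NPC-P4 and 0.24 and 0.201 CPM in WT-D28. SLC17A6 differed by 6.77 on the log2 scale (standard error 0.66, edgeR adjusted p = 5.11e-06). Neither transporter exceeded its counting floor in WT-D28. The layer and identity factors differed less. BCL11B (CTIP2) of subcortical projection neurons had 92.5 and 112 CPM in WT-NPC-P4 and 9.12 and 9.66 CPM in WT-D28, a log2 difference of 3.44 (standard error 0.18, edgeR adjusted p = 7.93e-10), and FEZF2 a difference of 1.72 (standard error 0.15, edgeR adjusted p = 1.98e-07). NFIB, a nuclear factor I protein of deep-layer neurons and glia, had 436 and 525 CPM in WT-NPC-P4 and 56.2 and 55.5 CPM in WT-D28. The NFIB log2 difference was 3.11 (standard error 0.17, edgeR adjusted p = 5.29e-09). FOXP2, a forkhead factor of deep-layer neurons, had 22.05 and 28.5 CPM in WT-NPC-P4 and 1.56 and 1.41 CPM in WT-D28. FOXP2 differed by 4.08 on the log2 scale (standard error 0.26, edgeR adjusted p = 6.60e-09). FEZF2, with 60.8 and 58.3 CPM, and NFIB were well above the floor in WT-D28. CUX1, which is also expressed outside the cortex, did not pass the test, at 200.4 and 217 CPM against 188 and 177 CPM.

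The genes that pattern the dorsal telencephalon differed in the same direction. Of 20 tested, 14 were higher in WT-NPC-P4 and 0 higher in WT-D28, with a median of 3.22, or 2.93 when genes at 0 were set to their bound. DESeq2 and an unadjusted p below 0.05 in edgeR at any fold also gave 0 higher in WT-D28. EMX1 had 101 and 93.7 CPM in WT-NPC-P4 and 0.24 and 0.201 CPM in WT-D28 and 0 and 2.24 CPM at passage 2. The EMX1 log2 difference was 8.60 (standard error 0.39, edgeR adjusted p = 2.02e-10). Its paralog EMX2 had 136 and 148 CPM in WT-NPC-P4 and 4.56 and 4.43 CPM in WT-D28 and 53.5 and 43.2 CPM at passage 2. EMX2 differed by 4.97 on the log2 scale (standard error 0.21, edgeR adjusted p = 1.53e-10). The EMX homeobox genes mark the pallium, and EMX1 was near its floor in the other WT groups. PAX6, which specifies dorsal progenitors, had 248 and 261 CPM in WT-NPC-P4 and 11.9 and 11.7 CPM in WT-D28 and 304 and 262 CPM at passage 2. The PAX6 log2 difference was 4.43 (standard error 0.28, edgeR adjusted p = 1.22e-06). LHX2, a selector of cortical identity, had 338 and 346 CPM in WT-NPC-P4 and 95.7 and 96.5 CPM in WT-D28. LHX2 differed by 1.83 on the log2 scale (standard error 0.15, edgeR adjusted p = 1.15e-07). For PAX6 the passage 2 samples lay at or above the WT-NPC-P4 values and WT-D28 was the group that stood apart. Among medial and rostral patterning genes, DMRTA2 had 88.2 and 91.9 CPM in WT-NPC-P4 and 0.8401 and 0.302 CPM in WT-D28, a log2 difference of 7.28 (standard error 0.33, edgeR adjusted p = 1.32e-10), and SP8 had 108 and 119 CPM in WT-NPC-P4 and 0.6001 and 0.101 CPM in WT-D28 with 95.3 and 108 CPM at passage 2. The SP8 log2 difference was 8.30 (standard error 0.28, edgeR adjusted p = 4.74e-12). TFAP2C, a factor of basal progenitors, was at 0 counts in WT-D28 and at 40.4 and 42.6 CPM in WT-NPC-P4, at least 115-fold higher (edgeR adjusted p = 0.000154). ENSG00000224076, a locus with no symbol in the annotation, was at 0 in WT-D28 and at 27.4 and 26.97 CPM in WT-NPC-P4, at least 75.5-fold higher, and is on no list. It lies at chr2:161422659-161423577 on the minus strand, inside the interval of TBR1 on the plus strand. Whether its counts are separate from those of TBR1 was not tested. WNT8B, a ligand of the cortical hem, had 19.7 and 14.6 CPM in WT-NPC-P4 and 1.20 and 1.61 CPM in WT-D28. WNT8B differed by 3.55 on the log2 scale (standard error 0.51, edgeR adjusted p = 0.000277).

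NR2F2 (COUP-TFII), of caudal cortex and caudal ganglionic eminence, had 38.1 and 39.8 CPM in WT-NPC-P4 and 116 and 117 CPM in WT-D28, a log2 difference of -1.58 (standard error 0.69, edgeR adjusted p = 0.116), not past the threshold. The values of NR2F2 did not overlap, and it was called when only the 4 samples compared were fitted.

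**Figure D1:**
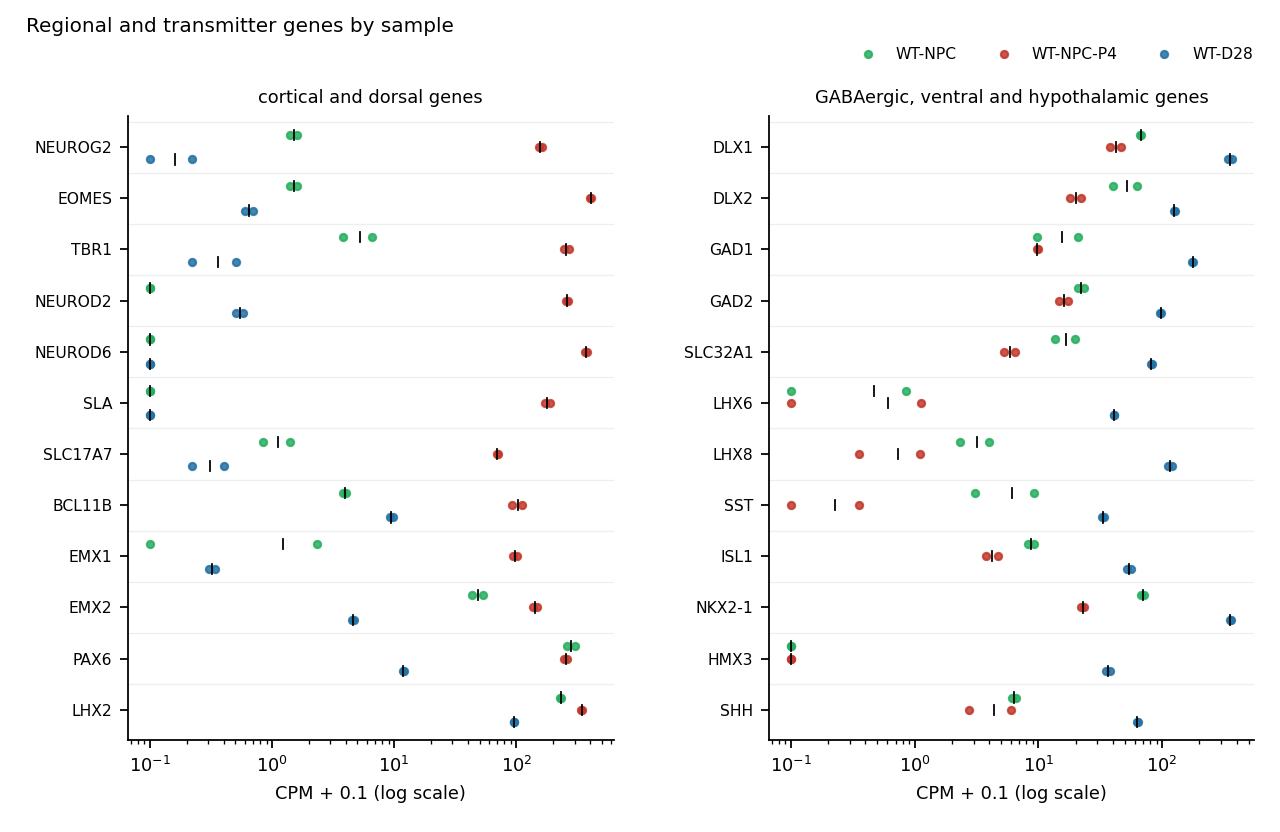
CPM + 0.1 of single genes on a log axis, with 1 point per sample for WT-NPC (passage 2, green), WT-NPC-P4 (red) and WT-D28 (blue) and a black tick at the mean. Of the cortical and dorsal genes on the left, the WT-NPC-P4 samples lie above the WT-D28 samples in every row, and of the genes on the right WT-D28 lies above WT-NPC-P4 in every row.

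GABAergic genes went the other way. Of 19 tested, 13 were higher in WT-D28 and 3 higher in WT-NPC-P4, with a median of -2.60 (SD between replicates 0.02). Beside this, 8.19% of all tested genes were called higher in WT-D28. This list too was chosen with earlier results known, so its share is no test. GAD1 (ENSG00000128683, chr2:170813213-170861151, plus strand), which makes GABA from glutamate, had 9.69 and 9.76 CPM in WT-NPC-P4 and 178 and 174 CPM in WT-D28 and 20.9 and 9.69 CPM at passage 2. The GAD1 log2 difference was -4.17 (standard error 0.19, edgeR adjusted p = 1.64e-10). GAD2, the synaptic form of the enzyme, had 14.7 and 17.2 CPM in WT-NPC-P4 and 97.9 and 96.7 CPM in WT-D28. GAD2 differed by -2.60 on the log2 scale (standard error 0.28, edgeR adjusted p = 7.91e-06). SLC32A1, the vesicular GABA transporter, had 6.35 and 5.14 CPM in WT-NPC-P4 and 82.2 and 80.5 CPM in WT-D28. The SLC32A1 log2 difference was -3.83 (standard error 0.27, edgeR adjusted p = 2.00e-08). All 3 genes had counts in WT-NPC-P4 as well, and in none did the groups overlap. On the RPKM scale in WT-D28, SLC32A1 stood at 31.9 and GAD1 at 21.3, against 0.0352 for SLC17A7. In WT-NPC-P4, SLC17A7 stood at 11.7, SLC17A6 at 5.93, SLC32A1 at 2.25 and GAD1 at 1.18.

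The DLX homeobox genes, which act upstream of GAD1 and GAD2, were higher in WT-D28. DLX1 had 37.7 and 46.5 CPM in WT-NPC-P4 and 369 and 343 CPM in WT-D28 and 66.6 and 67.1 CPM at passage 2. DLX1 differed by -3.07 on the log2 scale (standard error 0.43, edgeR adjusted p = 0.00108). DLX2 had 18.04 and 22.1 CPM in WT-NPC-P4 and 125 and 126 CPM in WT-D28, a log2 difference of -2.63 (standard error 0.24, edgeR adjusted p = 1.39e-06), and DLX5 and DLX6 differed by -1.78 and -3.15. The 4 DLX genes were expressed in all WT groups and highest in WT-D28. LHX8 (ENSG00000162624, chr1:75128434-75161533, plus strand), which directs cholinergic and GABAergic neurons of the ventral forebrain, had 1.002 and 0.257 CPM in WT-NPC-P4 and 112 and 119 CPM in WT-D28. The LHX8 log2 difference was -7.56 (standard error 0.34, edgeR adjusted p = 1.41e-10). LHX6, its partner in cortical interneurons, had 0 and 1.03 CPM in WT-NPC-P4 and 40.8 and 40.5 CPM in WT-D28. LHX6 differed by -6.06 on the log2 scale (standard error 0.49, edgeR adjusted p = 1.93e-07). ISL1, of striatal and cholinergic neurons, had 3.67 and 4.62 CPM in WT-NPC-P4 and 56.4 and 52.2 CPM in WT-D28. The ISL1 log2 difference was -3.68 (standard error 0.25, edgeR adjusted p = 1.06e-08). LHX6 and LHX8 did not exceed 4 counts in either WT-NPC-P4 sample. The 3 members higher in WT-NPC-P4 were MEIS2 at 3.11 (standard error 0.12, edgeR adjusted p = 3.58e-11), CALB2 at 3.27 (standard error 0.34, edgeR adjusted p = 1.32e-06) and MAF at 1.28 (standard error 0.14, edgeR adjusted p = 2.08e-06). MEIS2 is a homeobox gene of both striatum and cortex, CALB2 the calcium buffer calretinin, which early cortical neurons also carry, and MAF a basic leucine zipper factor of interneurons.

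Ventral and hypothalamic genes gave a mixed list, with 7 of 14 tested higher in WT-D28 and 5 higher in WT-NPC-P4 and a median of -0.38. NKX2-1 (ENSG00000136352, chr14:36516392-36521149, minus strand), which marks the medial ganglionic eminence and the hypothalamus, had 23.4 and 22.1 CPM in WT-NPC-P4 and 359 and 354 CPM in WT-D28 and 67.9 and 71.6 CPM at passage 2. The NKX2-1 log2 difference was -3.97 (standard error 0.19, edgeR adjusted p = 4.43e-10). HMX3 (ENSG00000188620, chr10:123135970-123139423, plus strand), a homeobox gene of the hypothalamus and inner ear, had 0 counts in WT-NPC-P4 and at passage 2, and 37.8 and 35.1 CPM in WT-D28, at least 36.4-fold higher (edgeR adjusted p = 2.86e-08). SIX3, of the anterior neural plate and ventral forebrain, had 12.7 and 11.04 CPM in WT-NPC-P4 and 76.5 and 72.8 CPM in WT-D28, a log2 difference of -2.66 (standard error 0.20, edgeR adjusted p = 5.17e-08), and VAX1, which is active in the optic stalk and ventral forebrain, had 9.02 and 9.503 CPM in WT-NPC-P4 and 45.1 and 42.4 CPM in WT-D28. VAX1 differed by -2.23 on the log2 scale (standard error 0.29, edgeR adjusted p = 3.95e-05). These 4 genes showed no overlap between groups, and SIX3 and VAX1 at passage 2, with 58.7 and 76.8 and 78.3 and 69.3 CPM, were nearer to WT-D28 than to WT-NPC-P4. CRH and TRH, peptides of hypothalamic neurons, were higher in WT-NPC-P4. CRH had 17.04 and 16.7 CPM in WT-NPC-P4 and 0 and 0.302 CPM in WT-D28, a ratio of 103 (95% counting interval 34.2 to 505), and TRH had 34.4 and 36.2 CPM in WT-NPC-P4 and 5.76 and 3.82 CPM in WT-D28 with 58.7 and 41.0 CPM at passage 2. The TRH log2 difference was 2.89 (standard error 0.60, edgeR adjusted p = 0.00649). CRH is also made by cortical neurons. Other hypothalamic peptides on the list were under the count filter and lay on both sides, with WT-D28 sequenced more deeply. HCRT had 4 counts over WT-NPC-P4 and 46 over WT-D28, POMC 1 and 10, GHRH 1 and 9 and AGRP 0 and 1. PMCH had 14 and 10 and KISS1 2 and 0. TRH lost its call without WT-D28 replicate 2 (2.61, edgeR adjusted p = 0.05004), and the number of hypothalamic genes higher in WT-NPC-P4 was then 3. DESeq2 called 4 of the list higher in WT-D28. Of the 35 listed genes 21 were not tested, among them OTP with 16 counts over WT-NPC-P4 and 4 over WT-D28 and RAX with 6 and 5.

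Few genes of regions behind the forebrain reached the count filter. Of 24 listed hindbrain and spinal cord genes 2 were tested, and of these EGR2, which is also an activity gene, was higher in WT-D28. Counts of the HOXB genes summed over both samples of a group were at most 44, for HOXB3, in WT-NPC-P4 and 17 in WT-D28. With the filter lowered to 1 count in any sample, 18 hindbrain and spinal cord genes were tested. Of these, 5 were then called higher in WT-NPC-P4 and 2 higher in WT-D28, at low counts. Of 10 tested genes of caudal diencephalon and midbrain, 4 were higher in WT-NPC-P4 and 2 higher in WT-D28. PAX7, a dorsal midbrain gene, had 0 counts in WT-D28 and 18.04 and 14.4 CPM in WT-NPC-P4, at least 45.02-fold higher (edgeR adjusted p = 9.71e-09), whereas PAX5 had 0.334 and 2.05 CPM in WT-NPC-P4 and 22.2 and 18.2 CPM in WT-D28. PAX5 differed by -3.93 on the log2 scale (standard error 0.46, edgeR adjusted p = 6.11e-06). OTX1 was higher in WT-NPC-P4 at 4.03 (standard error 0.77, edgeR adjusted p = 0.00543) and its paralog OTX2 higher in WT-D28 at -1.17 (standard error 0.16, edgeR adjusted p = 2.10e-05), with 157 and 165 CPM at passage 2. The OTX genes pattern forebrain and midbrain, so this paralog pair split between the cultures. Of 9 eye field and retina genes, 4 were higher in WT-NPC-P4 and 2 higher in WT-D28, and the former count was 2 without WT-NPC-P4 replicate 2, 2 without WT-D28 replicate 2 and 1 once GC content and gene length were corrected for. DCT, a melanin synthesis enzyme that is also expressed in cortical progenitors, had 76.5 and 82.2 CPM in WT-NPC-P4 and 1.68 and 1.51 CPM in WT-D28, a log2 difference of 5.62 (standard error 0.28, edgeR adjusted p = 4.43e-10), and RPE65, a visual cycle enzyme, had 6.01 and 7.19 CPM in WT-NPC-P4 and 30.1 and 29.6 CPM in WT-D28. The RPE65 log2 difference was -2.16 (standard error 0.26, edgeR adjusted p = 7.16e-06).

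**Figure D2:**
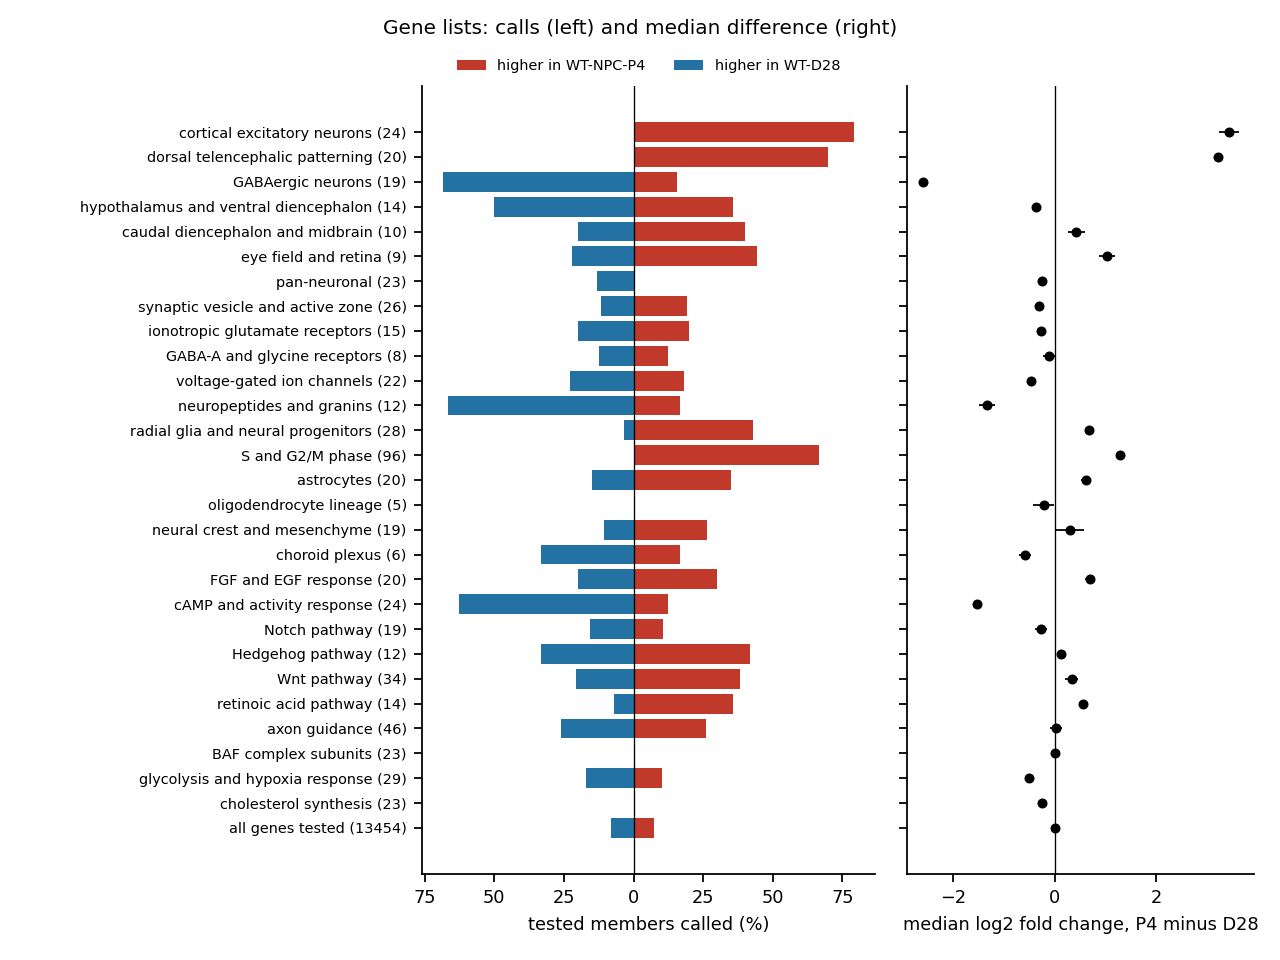
Left, percent of the tested members of each gene list (number tested in brackets) called higher in WT-NPC-P4 (red, to the right) or in WT-D28 (blue, to the left). Right, the median log2 fold change of the tested members, WT-NPC-P4 minus WT-D28, with the SD between replicates as bars. The cortical, dorsal and cell cycle lists carry red bars only, the GABAergic, neuropeptide and activity lists mainly blue, and all genes (7.26% and 8.19%) are in the bottom row. Some genes, such as SST, are on several lists.

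Hedgehog genes, which pattern the ventral side, lay on both sides of the comparison. Of 12 tested members 5 were higher in WT-NPC-P4 and 4 higher in WT-D28. SHH (ENSG00000164690, chr7:155799980-155812463, minus strand), the ligand, had 2.67 and 5.91 CPM in WT-NPC-P4 and 62.4 and 63.5 CPM in WT-D28 and 6.53 and 5.96 CPM at passage 2. SHH differed by -3.81 on the log2 scale (standard error 0.25, edgeR adjusted p = 6.93e-09). The receptors and feedback inhibitors that the pathway induces were also higher in WT-D28. PTCH1 had 40.1 and 44.2 CPM in WT-NPC-P4 and 189 and 172 CPM in WT-D28, a log2 difference of -2.09 (standard error 0.14, edgeR adjusted p = 9.48e-09), and HHIP, a ligand trap, differed by -2.24 (standard error 0.37, edgeR adjusted p = 0.000148). SHH, PTCH1 and HHIP were without overlap. The 5 members higher in WT-NPC-P4 were transcription factors and co-receptors. GLI3, the main repressor, had 384 and 415 CPM in WT-NPC-P4 and 55.9 and 51.7 CPM in WT-D28 and 444 and 432 CPM at passage 2, a log2 difference of 2.89 (standard error 0.15, edgeR adjusted p = 5.61e-10), and GLI2 differed by 2.74 (standard error 0.14, edgeR adjusted p = 4.55e-10). The co-receptors GAS1, CDON and BOC, whose transcription Hedgehog signalling is known to repress, differed by 5.10, 3.53 and 3.29. CDON had 242 and 266 CPM in WT-NPC-P4 and 24.6 and 19.5 CPM in WT-D28. SMO, the transducer, did not pass the test, at 73.8 and 71.4 CPM against 69.9 and 67.5 CPM.

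Of 34 tested Wnt genes 13 were higher in WT-NPC-P4 and 7 higher in WT-D28, with a median of 0.33. Ligands split. WNT7B had 40.1 and 47.3 CPM in WT-NPC-P4 and 2.28 and 1.61 CPM in WT-D28, a log2 difference of 4.49 (standard error 0.50, edgeR adjusted p = 0.000145), while WNT4 had 1.67 and 3.85 CPM in WT-NPC-P4 and 18.1 and 19.3 CPM in WT-D28. The WNT4 log2 difference was -2.69 (standard error 0.36, edgeR adjusted p = 2.36e-05). RSPO3, a secreted amplifier of the pathway made at the cortical hem, had 44.8 and 42.6 CPM in WT-NPC-P4 and 3 counts in WT-D28, a ratio of 265 (95% counting interval 89.9 to 1294), and RSPO2 differed by 2.75 (standard error 0.43, edgeR adjusted p = 0.000245). The R-spondin receptors differed in the opposite direction, LGR5 by -2.22 (standard error 0.29, edgeR adjusted p = 1.63e-05) and LGR4 by -1.29 (standard error 0.15, edgeR adjusted p = 3.38e-06). Ligand and receptor of this branch were thus higher in different cultures. SFRP1, a secreted Wnt antagonist of dorsal progenitors, had 296 and 334 CPM in WT-NPC-P4 and 19.3 and 15.6 CPM in WT-D28 and 833 and 669 CPM at passage 2. SFRP1 differed by 4.18 on the log2 scale (standard error 0.21, edgeR adjusted p = 1.85e-08). Among Frizzled receptors, FZD5, which is enriched in eye field and hypothalamus, had 21.05 and 21.8 CPM in WT-NPC-P4 and 218 and 217 CPM in WT-D28 and 352 and 405 CPM at passage 2, a log2 difference of -3.34 (standard error 0.40, edgeR adjusted p = 0.000353), and FZD7 differed by 1.98 (standard error 0.15, edgeR adjusted p = 3.27e-08). APCDD1, a feedback inhibitor, differed by 2.37 (standard error 0.38, edgeR adjusted p = 0.000901).

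Of 20 genes that respond to FGF and EGF, the mitogens present in the NPC medium only, 6 were higher in WT-NPC-P4 and 4 higher in WT-D28, with a median of 0.68. SPRY1, an inhibitor induced by FGF, had 63.1 and 75.3 CPM in WT-NPC-P4 and 18.6 and 20.6 CPM in WT-D28. The SPRY1 log2 difference was 1.82 (standard error 0.18, edgeR adjusted p = 1.26e-06). PHLDA1 had 239.5 and 244 CPM in WT-NPC-P4 and 69.6 and 69.7 CPM in WT-D28, a log2 difference of 1.79 (standard error 0.11, edgeR adjusted p = 4.17e-09), and ETV1, an ETS factor, differed by 2.84 (standard error 0.14, edgeR adjusted p = 4.43e-10). EGR1 and CCND1 were higher in WT-D28, at -3.56 and -1.51. DUSP6 and SPRY2, feedback inhibitors of the same pathway, were under the fold threshold, at 0.76 and 0.53. The mitogen list therefore held members on both sides. Of 14 retinoic acid genes 5 were higher in WT-NPC-P4, among them MEIS2 given above, and only 1, CRABP2, was higher in WT-D28. CRABP2, which carries retinoic acid to the nucleus, had 25.4 and 19.3 CPM in WT-NPC-P4 and 98.2 and 90.6 CPM in WT-D28 and 221 and 248 CPM at passage 2. CRABP2 differed by -2.09 on the log2 scale (standard error 0.17, edgeR adjusted p = 1.32e-07). Of 19 Notch genes 2 were higher in WT-NPC-P4 and 3 higher in WT-D28, a share near that of all tested genes, and the former count was 1 without any 1 of the 4 samples and by DESeq2. Once GC content and gene length were corrected for, the counts were 3 and 1. HES6, which is expressed in committed precursors and opposes HES1, had 272 and 232 CPM in WT-NPC-P4 and 95.5 and 98.5 CPM in WT-D28, a log2 difference of 1.38 (standard error 0.15, edgeR adjusted p = 1.77e-06), and DTX4, a ubiquitin ligase, had 74.8 and 82.2 CPM in WT-NPC-P4 and 174 and 172 CPM in WT-D28. The DTX4 log2 difference was -1.14 (standard error 0.13, edgeR adjusted p = 3.57e-06). DLL1 (0 counts over WT-NPC-P4 and 1 over WT-D28) and HES5 (2 and 10) were not tested. SMARCB1, a core subunit of a remodelling complex that cells of this kind use, had 0 counts in all 12 files, and MAPT, the neuronal protein tau, had 1 count over WT-NPC-P4 and 2 over WT-D28, so a low count here need not mean a silent gene.

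Glutamate receptor subunits lay on both sides. Of 15 ionotropic glutamate receptor genes, 3 were higher in WT-NPC-P4 and 3 higher in WT-D28. The AMPA subunit GRIA3 had 84.5 and 97.3 CPM in WT-NPC-P4 and 19.7 and 20.8 CPM in WT-D28. GRIA3 differed by 2.17 on the log2 scale (standard error 0.24, edgeR adjusted p = 5.23e-06). The NMDA subunit GRIN2A had 26.1 and 25.7 CPM in WT-NPC-P4 and 1.56 and 1.51 CPM in WT-D28, a log2 difference of 4.05 (standard error 0.30, edgeR adjusted p = 3.58e-08), whereas GRIN2D, an NMDA subunit of interneurons, had 17.4 and 20.5 CPM in WT-NPC-P4 and 70.3 and 72.5 CPM in WT-D28. The GRIN2D log2 difference was -1.90 (standard error 0.24, edgeR adjusted p = 1.64e-05). The kainate subunits GRIK2 and GRIK3 were both higher in WT-D28. GRIK2 had 18.7 and 21.1 CPM in WT-NPC-P4 and 119 and 115 CPM in WT-D28, a log2 difference of -2.55 (standard error 0.25, edgeR adjusted p = 2.54e-06), and GRIK3 had 128 and 128 CPM in WT-NPC-P4 and 477 and 473 CPM in WT-D28. GRIK3 differed by -1.89 on the log2 scale (standard error 0.30, edgeR adjusted p = 0.00149). GRIA2, which sets the calcium permeability of AMPA receptors, did not pass the test, at 338 and 317 CPM against 446 and 474 CPM, a log2 difference of -0.49 (standard error 0.40, edgeR adjusted p = 0.373), and was called at -1.005 with a replicate block and GC content and gene length correction. Of 8 GABA-A and glycine receptor genes, GABRB2 was higher in WT-NPC-P4 at 3.05 (standard error 0.24, edgeR adjusted p = 7.67e-08) and GABRA3 higher in WT-D28 at -2.13 (standard error 0.18, edgeR adjusted p = 1.69e-07). Without WT-NPC-P4 replicate 2, or without WT-D28 replicate 1, 2 of these 8 were higher in WT-D28.

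Of 22 voltage-gated channel genes 4 were higher in WT-NPC-P4 and 5 higher in WT-D28. KCNQ3, a subunit of the M-current that dampens firing, had 209 and 249 CPM in WT-NPC-P4 and 9.72 and 8.75 CPM in WT-D28. The KCNQ3 log2 difference was 4.63 (standard error 0.18, edgeR adjusted p = 1.71e-11). CACNA2D1, an auxiliary calcium channel subunit, had 157 and 176 CPM in WT-NPC-P4 and 10.4 and 10.9 CPM in WT-D28, a log2 difference of 3.96 (standard error 0.26, edgeR adjusted p = 1.52e-07), and KCNA2, an axonal potassium channel, differed by 4.17 (standard error 0.51, edgeR adjusted p = 3.62e-05). In the other direction, CACNA1G, a T-type calcium channel, differed by -1.67 (standard error 0.22, edgeR adjusted p = 1.43e-05). Of 26 synaptic vesicle and active zone genes 5 were higher in WT-NPC-P4 and 3 higher in WT-D28, with a median of -0.30, and the called genes include the 3 vesicular transporters described above. CPLX2, a complexin that clamps vesicle fusion, had 213 and 229 CPM in WT-NPC-P4 and 37.8 and 41.7 CPM in WT-D28. CPLX2 differed by 2.48 on the log2 scale (standard error 0.27, edgeR adjusted p = 4.50e-05). RAB3C, a vesicle GTPase, had 44.8 and 47.8 CPM in WT-NPC-P4 and 180.4 and 171 CPM in WT-D28. The RAB3C log2 difference was -1.92 (standard error 0.15, edgeR adjusted p = 5.17e-08). SYP and SYN1, general vesicle markers, were under the fold threshold, at -0.94 (standard error 0.27, edgeR adjusted p = 0.0201) and -0.90 (standard error 0.16, edgeR adjusted p = 0.000273).

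Activity- and cAMP-responsive genes were mostly higher in WT-D28, whose medium contained cAMP. Of 24 tested, 15 were higher in WT-D28 and 3 higher in WT-NPC-P4, with a median of -1.54 (SD between replicates 0.03). Over all tested genes the shares were 8.19% and 7.26%. The immediate early genes encode transcription factors and effectors that neurons switch on within minutes of calcium or cAMP signals. FOS had 45.8 and 40.1 CPM in WT-NPC-P4 and 526 and 529 CPM in WT-D28. FOS differed by -3.62 on the log2 scale (standard error 0.28, edgeR adjusted p = 8.59e-06). FOSB had 0.334 and 1.03 CPM in WT-NPC-P4 and 44.5 and 42.7 CPM in WT-D28. The FOSB log2 difference was -5.85 (standard error 0.59, edgeR adjusted p = 4.09e-05). EGR1 had 79.5 and 77.8 CPM in WT-NPC-P4 and 936 and 922 CPM in WT-D28. EGR1 differed by -3.56 on the log2 scale (standard error 0.22, edgeR adjusted p = 2.79e-07). In passage 2 WT NPCs, grown without added cAMP by the methods, FOS had 439 and 446 CPM, FOSB 188 and 151 CPM and EGR1 894 and 784 CPM, so passage 2 lay near or above WT-D28 and WT-NPC-P4 was the low group. NPAS4, which in neurons follows calcium influx, had 0 and 0.771 CPM in WT-NPC-P4 and 49.9 and 50.001 CPM in WT-D28 and 5.22 and 8.199 CPM at passage 2, a ratio of 115 (95% counting interval 39.1 to 557) with edgeR adjusted p = 0.00435. ARC, a synaptic effector, had 8.02 and 5.91 CPM in WT-NPC-P4 and 152 and 153 CPM in WT-D28 and 18.3 and 17.9 CPM at passage 2. The ARC log2 difference was -4.47 (standard error 0.74, edgeR adjusted p = 0.00304). For NPAS4 and ARC the passage 2 values lay well below those of WT-D28, and WT-NPC-P4 was again the low group. JUNB differed by -3.17 (standard error 0.17, edgeR adjusted p = 9.32e-10), NR4A1 by -2.69 (standard error 0.29, edgeR adjusted p = 6.20e-06) and EGR2 by -5.09 (standard error 0.80, edgeR adjusted p = 0.00101). The members higher in WT-NPC-P4 were PDE10A at 1.81 (standard error 0.16, edgeR adjusted p = 3.30e-07), PPARGC1A at 1.69 (standard error 0.24, edgeR adjusted p = 4.01e-05) and GEM at 1.28 (standard error 0.29, edgeR adjusted p = 0.002), a phosphodiesterase, a coactivator of mitochondrial genes and a small GTPase.

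The cAMP response element, to which CREB binds, is a palindrome and lies close to the start of several peptide genes. It is shown in capitals, TGACGTCA, in the 120 bases before the RefSeq start (GRCh38.p14, minus strand, 5′ to 3′) of 3 list members that were higher in WT-D28, at chr3:187670395-187670514 for SST, chr7:101165570-101165689 for VGF and chr5:96433249-96433368 for PCSK1:
SST: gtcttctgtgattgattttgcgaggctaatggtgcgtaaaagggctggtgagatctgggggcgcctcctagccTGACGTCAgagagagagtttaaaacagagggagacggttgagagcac
VGF: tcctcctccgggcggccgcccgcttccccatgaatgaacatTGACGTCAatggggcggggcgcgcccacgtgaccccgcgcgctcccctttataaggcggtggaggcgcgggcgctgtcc
PCSK1: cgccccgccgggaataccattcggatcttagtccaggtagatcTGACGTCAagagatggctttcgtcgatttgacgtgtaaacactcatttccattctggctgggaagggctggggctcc
It began 47 bases before the start in SST, 79 in VGF and 77 in PCSK1, and 125 in DUSP1, a phosphatase that was also higher in WT-D28, at -1.46 (standard error 0.28, edgeR adjusted p = 0.00212). Within the 250 bases before the start, TGACGTCA was found in 1.77% of 27305 RefSeq promoters and in 303 of the 10106 that belong to tested genes. It was found in 2.20% of the genes called higher in WT-D28 and in 2.79% of those higher in WT-NPC-P4, so it was not more frequent on the WT-D28 side over all called genes. Of the 19 activity genes with a promoter in the table it was found in 4 (21.1%), all of them higher in WT-D28. As these genes were listed as cAMP targets, this share describes the list.

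Of the neuropeptide and granin genes, 8 of 12 tested were higher in WT-D28 and 2 higher in WT-NPC-P4. The latter were CRH and TRH, of which TRH was lost without WT-D28 replicate 2. Among the 8, SST, SCG2, VGF and PCSK1 are also on the activity list and were counted there, so the 2 lists are not separate. The median was -1.34 (SD between replicates 0.15). The list holds 30 genes, and most of the others were under the count filter. With the filter lowered to 1 count in any sample, 30 were tested, 6 of them higher in WT-NPC-P4 and 11 higher in WT-D28. SST (ENSG00000157005, chr3:187668912-187670394, minus strand), the peptide of somatostatin interneurons, had 0 and 0.257 CPM in WT-NPC-P4 and 32.5 and 33.6 CPM in WT-D28, with 1 count in all in WT-NPC-P4, a ratio of 228 (95% counting interval 40.8 to 9022) with edgeR adjusted p = 2.04e-06. SCG2, a granin of dense-core vesicles, had 88.9 and 93.5 CPM in WT-NPC-P4 and 587 and 588 CPM in WT-D28 and 41.8 and 39.5 CPM at passage 2. SCG2 differed by -2.69 on the log2 scale (standard error 0.51, edgeR adjusted p = 0.00571). VGF, a granin induced by neurotrophins, had 4.01 and 6.16 CPM in WT-NPC-P4 and 49.8 and 48.1 CPM in WT-D28 and 52.2 and 46.96 CPM at passage 2. The VGF log2 difference was -3.23 (standard error 0.24, edgeR adjusted p = 3.89e-08). CHGB had 43.1 and 38.3 CPM in WT-NPC-P4 and 128 and 131 CPM in WT-D28, a log2 difference of -1.67 (standard error 0.20, edgeR adjusted p = 6.18e-06), and the prohormone convertase PCSK1 had 17.04 and 19.01 CPM in WT-NPC-P4 and 55.4 and 55.7 CPM in WT-D28. PCSK1 differed by -1.62 on the log2 scale (standard error 0.21, edgeR adjusted p = 1.88e-05). SST and SCG2 were highest in WT-D28, while for VGF the passage 2 and WT-D28 samples overlapped. TH, the rate-limiting enzyme of dopamine synthesis, had 0.334 and 0.514 CPM in WT-NPC-P4 and 21.8 and 20.9 CPM in WT-D28, a ratio of 49.0 (95% counting interval 16.6 to 239) with edgeR adjusted p = 6.26e-07. TH alone does not define a dopaminergic cell.

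**Figure D3:**
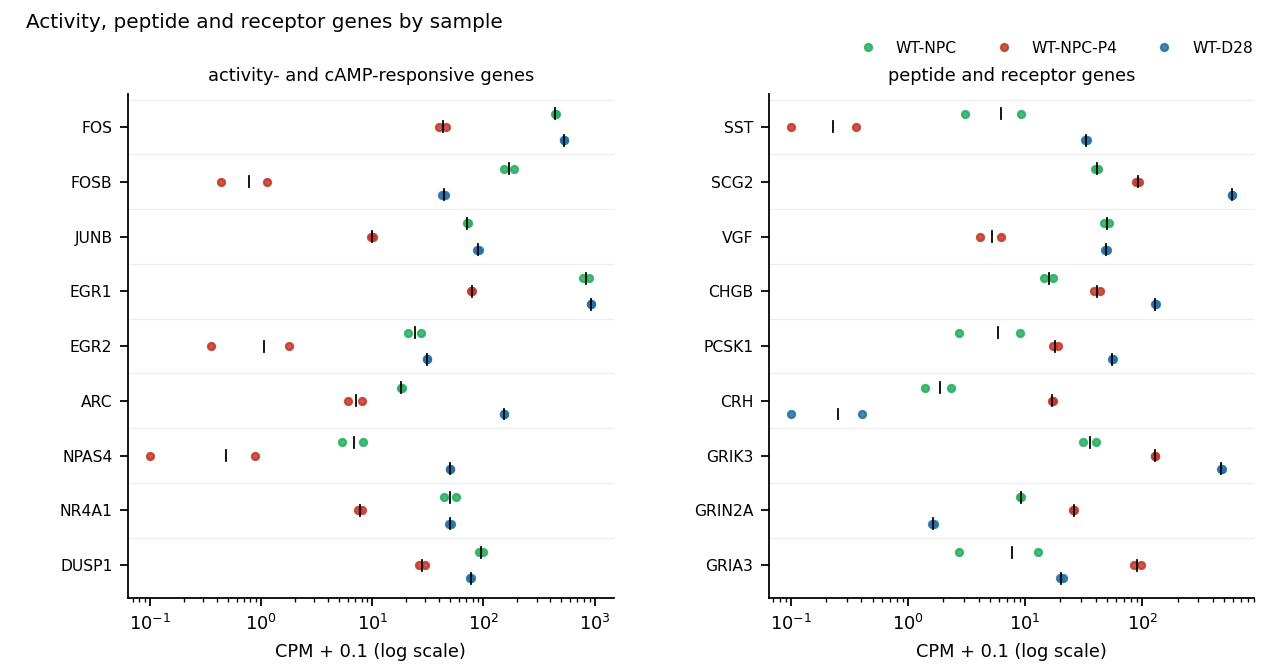
CPM + 0.1 of activity genes (left) and of peptide and receptor genes (right) on a log axis, 1 point per sample for WT-NPC (passage 2, green), WT-NPC-P4 (red) and WT-D28 (blue), with a black tick at the mean. For FOS, EGR1, JUNB and NR4A1 the green and blue points lie close to each other and the red points below them, whereas ARC, NPAS4 and SST are highest in WT-D28 and CRH, GRIN2A and GRIA3 in WT-NPC-P4.

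Receptor tyrosine kinases lay on both sides. INSRR, an orphan receptor of the insulin receptor family, had 1.002 and 0 CPM in WT-NPC-P4 and 43.6 and 44.8 CPM in WT-D28, a ratio of 102 (95% counting interval 34.6 to 493). NTRK2, the BDNF receptor, and NTRK3, the NT-3 receptor, were higher in WT-NPC-P4, at 1.57 (standard error 0.15, edgeR adjusted p = 7.33e-07) and 1.58 (standard error 0.14, edgeR adjusted p = 2.33e-07). NTRK2 and NTRK3 were chosen after their values were seen. The receptor phosphatase PTPRB was among the 10 genes with the most extreme values in WT-D28, at 113 and 106 CPM against 3.01 and 2.57 CPM in WT-NPC-P4. PTPRB differed by -5.29 on the log2 scale (standard error 0.29, edgeR adjusted p = 1.10e-09).

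Axon guidance genes divided evenly, 12 higher in WT-NPC-P4 and 12 higher in WT-D28 of 46 tested, with a median of 0.02. The secreted cues NTN1 and SLIT2, which act at the ventral midline, were higher in WT-D28. NTN1 had 33.4 and 27.5 CPM in WT-NPC-P4 and 229 and 238 CPM in WT-D28, a log2 difference of -2.95 (standard error 0.13, edgeR adjusted p = 1.53e-10), and SLIT2 had 105 and 111 CPM in WT-NPC-P4 and 439.5 and 438 CPM in WT-D28. The SLIT2 log2 difference was -2.02 (standard error 0.15, edgeR adjusted p = 3.90e-08). Of the SLIT receptors, ROBO2 was higher in WT-NPC-P4, with 354 and 402 CPM in WT-NPC-P4 and 45.01 and 41.4 CPM in WT-D28, a log2 difference of 3.13 (standard error 0.23, edgeR adjusted p = 1.64e-06), while ROBO3 was higher in WT-D28, at -2.33 (standard error 0.20, edgeR adjusted p = 1.97e-07). The cue SLIT2 and the receptor ROBO2 were therefore higher in different cultures. Ephrins and their receptors carry contact signals between axons. EFNB2 had 638 and 707 CPM in WT-NPC-P4 and 44.9 and 46.8 CPM in WT-D28, a log2 difference of 3.87 (standard error 0.13, edgeR adjusted p = 4.74e-12), EPHA7, which is graded across the cortex, had 82.5 and 94.3 CPM in WT-NPC-P4 and 4.08 and 5.53 CPM in WT-D28, a log2 difference of 4.18 (standard error 0.22, edgeR adjusted p = 1.09e-09), and EPHA3 differed by 3.37 (standard error 0.47, edgeR adjusted p = 0.000954). In the other direction, EPHB1 had 49.8 and 48.5 CPM in WT-NPC-P4 and 167 and 170.3 CPM in WT-D28, a log2 difference of -1.78 (standard error 0.14, edgeR adjusted p = 4.98e-08), and the ephrin EFNB3 and the semaphorin receptor NRP1 differed by -1.41 and -1.42.

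Glial and non-neural lists were checked as the other cell types that such cultures may hold. Of 20 astrocyte genes 7 were higher in WT-NPC-P4 and 3 higher in WT-D28, with a summed level of 4527 and 4706 CPM in WT-NPC-P4 and 3536 and 3553 CPM in WT-D28. GFAP, the defining intermediate filament, was low in both, at 21.7 and 23.6 CPM against 14.9 and 18.2 CPM. The GFAP log2 difference was 0.45 (standard error 0.23, edgeR adjusted p = 0.129). NFIA, a nuclear factor I protein that precedes gliogenesis, had 147 and 213 CPM in WT-NPC-P4 and 35.9 and 32.3 CPM in WT-D28, a log2 difference of 2.41. Its relative NFIX had 151 and 168 CPM in WT-NPC-P4 and 29.9 and 31.2 CPM in WT-D28, a log2 difference of 2.39. CD44, of astrocyte precursors, differed by 2.84 (standard error 0.18, edgeR adjusted p = 6.06e-09), whereas SPARCL1 had 93.5 and 92.98 CPM in WT-NPC-P4 and 679 and 710.2 CPM in WT-D28, a log2 difference of -2.90 (standard error 0.26, edgeR adjusted p = 1.60e-05), and the water channel AQP4 differed by -1.44 (standard error 0.28, edgeR adjusted p = 0.000759). Nuclear factor I genes and SPARCL1, all on the astrocyte list, thus pointed in opposite directions. Several of the list are also expressed by radial glia. Of 5 oligodendrocyte genes tested 0 were called in either direction by edgeR or DESeq2, with 1 higher in WT-NPC-P4 and 0 higher in WT-D28 at an unadjusted p below 0.05. The lineage genes OLIG2 (8 counts over WT-NPC-P4 and 48 over WT-D28), OLIG1 (16 and 173) and SOX10 (1 and 12) did not reach the filter. With the filter lowered to 1 count in any sample, 13 were tested, 0 called higher in WT-NPC-P4 and 1 higher in WT-D28.

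Of 19 neural crest and mesenchyme genes 5 were higher in WT-NPC-P4 and 2 higher in WT-D28, the latter 0 without WT-NPC-P4 replicate 2 and 1 without any other of the 4 samples. Their summed level was 795 and 815 CPM in WT-NPC-P4 and 713 and 722 CPM in WT-D28. COL1A1, the main fibroblast collagen, had 21.05 and 28.0 CPM in WT-NPC-P4 and 19.8 and 20.3 CPM in WT-D28 and 99.2 and 265 CPM at passage 2, a log2 difference of 0.30 (standard error 0.53, edgeR adjusted p = 0.69), and THY1, which neurons also express, differed by 1.12 (standard error 0.16, edgeR adjusted p = 4.00e-05). Of 6 choroid plexus genes 1 was higher in WT-NPC-P4 and 2 higher in WT-D28, or 1 without WT-NPC-P4 replicate 1, and TTR, the defining gene, had 5 counts over WT-NPC-P4 and 1 over WT-D28. Of 4 tested endothelial, blood and pluripotency genes 1 was higher in WT-NPC-P4 and 0 higher in WT-D28 (edgeR, also 0 at an unadjusted p below 0.05 and by DESeq2). The former was the VEGF receptor KDR, at 2.27 (standard error 0.44, edgeR adjusted p = 0.000714), and KDR lost its call without WT-NPC-P4 replicate 2. POU5F1 and NANOG, which define pluripotent cells, had 0 counts in all 4 samples, as had AIF1 of microglia, and PECAM1 of endothelium had 0 counts over WT-NPC-P4 and 1 over WT-D28. The part of any of these cell types in the differences above was not tested.

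Subunits of a chromatin remodelling complex and sterol enzymes were next compared. Of 23 tested subunits of the BAF chromatin remodelling complex 0 were called in either direction by edgeR or DESeq2, although 7 were higher in WT-NPC-P4 and 7 in WT-D28 at an unadjusted p below 0.05, and the median was -0.01. With the filter lowered to 1 count in any sample, 24 were tested, 1 of them called higher in WT-NPC-P4 and 0 in WT-D28. The subunit DPF3, under the main filter, had 94 counts over WT-NPC-P4 and 55 over the more deeply sequenced WT-D28. ACTL6B, the subunit that neurons use in place of ACTL6A, had 56.8 and 48.5 CPM in WT-NPC-P4 and 66.4 and 66.0 CPM in WT-D28 and 9.14 and 8.94 CPM at passage 2. Of 23 cholesterol synthesis genes 0 were called by either tool, with 0 higher in WT-NPC-P4 and 5 in WT-D28 at an unadjusted p below 0.05 and a median of -0.25. Without WT-NPC-P4 replicate 2, 1 of them was called higher in WT-D28. Of 29 genes of glycolysis and hypoxia 3 were higher in WT-NPC-P4 and 5 higher in WT-D28, with a median of -0.50. VEGFA, a hypoxia-induced growth factor, had 82.5 and 84.2 CPM in WT-NPC-P4 and 315 and 325 CPM in WT-D28, a log2 difference of -1.94 (standard error 0.18, edgeR adjusted p = 1.64e-06), and PFKP, a phosphofructokinase, had 48.1 and 36.5 CPM in WT-NPC-P4 and 124 and 121 CPM in WT-D28. The PFKP log2 difference was -1.54 (standard error 0.14, edgeR adjusted p = 4.16e-07). LDHA, which makes lactate, went the other way with 128 and 135 CPM in WT-NPC-P4 and 50.2 and 51.2 CPM in WT-D28. LDHA differed by 1.37 on the log2 scale (standard error 0.19, edgeR adjusted p = 8.72e-05). The hypoxia targets VEGFA and LDHA thus did not move together. KDM6A had 50.4 and 53.9 CPM in WT-NPC-P4 and 44.3 and 48.99 CPM in WT-D28, a log2 difference of 0.16 (standard error 0.20, edgeR adjusted p = 0.552), and KDM6B had 117 and 127 CPM in WT-NPC-P4 and 205 and 189 CPM in WT-D28, a log2 difference of -0.69 (standard error 0.11, edgeR adjusted p = 8.39e-05), both under the fold threshold.

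The same difference between passage 4 and day 28 was measured in dKO cells, and the difference of the differences was tested in the same fit. It was called higher in WT for 1287 genes (9.57%) and lower in WT for 1273 genes (9.46%), 2560 (19.0%) in all. The dKO-D28 samples differed from each other more than those of other groups, the chi-square of their counts divided by its degrees of freedom being 14.1 against 1.57 to 3.31. Without dKO-D28 replicate 1 the counts were 1448 and 1543, and without replicate 2 they were 1429 and 1392. EOMES had 2.81 and 2.698 CPM in dKO-NPC-P4 and 20.6 and 24.3 CPM in dKO-D28, and differed between WT and dKO by 12.48 (standard error 0.28, edgeR adjusted p = 4.50e-14). TBR1 had 30.7 and 24.8 CPM in dKO-NPC-P4 and 29.1 and 17.9 CPM in dKO-D28, a difference of 9.46 (standard error 0.41, edgeR adjusted p = 3.00e-10). NEUROD6, NEUROD2 and SLA had 0 counts in the 4 dKO samples, and their difference was not called. Without counts in either dKO group that difference cannot be estimated, so the missing call does not mean that WT and dKO were alike. On the WT-D28 side, GAD1 had 10.5 and 13.2 CPM in dKO-NPC-P4 and 4.36 and 3.28 CPM in dKO-D28, a difference of -5.82 (standard error 0.33, edgeR adjusted p = 4.44e-09), and LHX8 had at most 0.490 CPM in any of the 4 dKO samples, a difference of -6.79 (standard error 1.77, edgeR adjusted p = 0.0074). These 4 genes were named by their WT difference, which is part of this contrast. Their differences were also called without either dKO-D28 sample. EOMES and TBR1 at both dKO stages were thus below WT-NPC-P4, and GAD1 and LHX8 below WT-D28. Among the activity genes, FOSB had 52.9 and 39.5 CPM in dKO-NPC-P4 and 475 and 282 CPM in dKO-D28, and FOS and EGR1 were lower at passage 4 in dKO as in WT, at -2.66 and -2.58 on the log2 scale. For FOS the difference between WT and dKO was -0.97 (edgeR adjusted p = 0.07), not called, and for EGR1 -0.98 (edgeR adjusted p = 0.0224), under the fold threshold. Without dKO-D28 replicate 1 both were called, at -1.47 and -1.27, and without replicate 2 neither was, at -0.58 and -0.72.

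**Figure D4:**
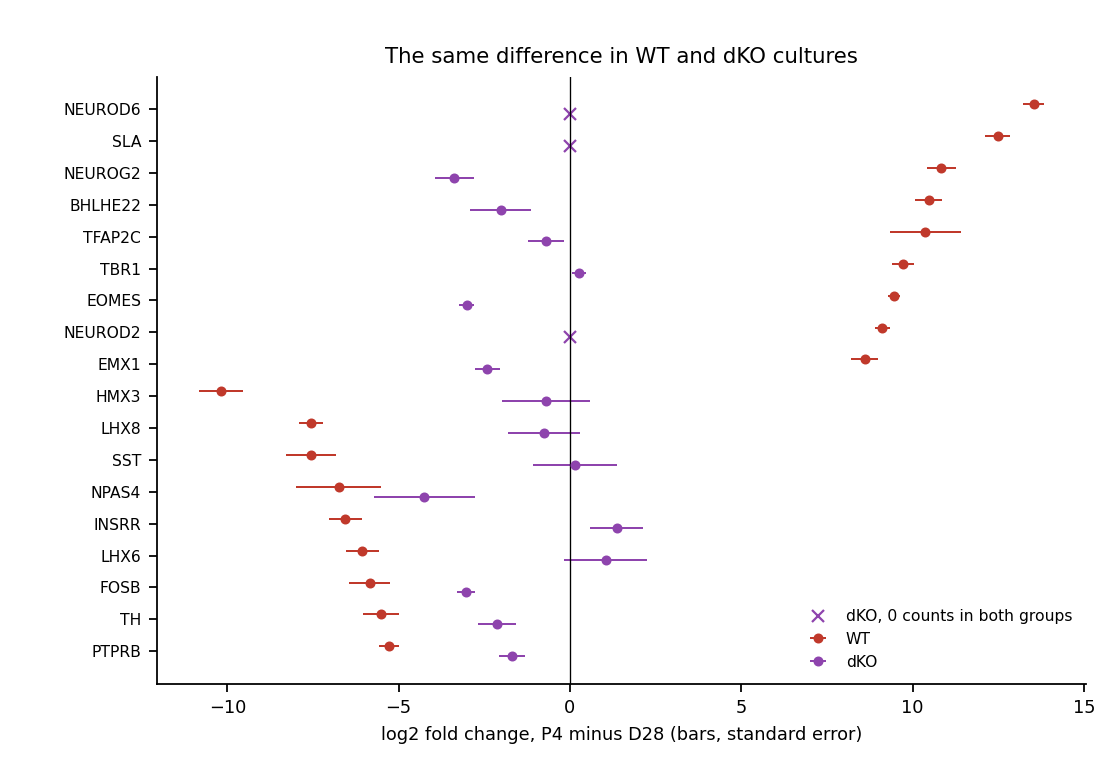
Log2 fold change of passage 4 minus day 28 (x axis, bars are standard errors) in WT (red) and dKO (purple) cells for 18 of the 20 most extreme genes. Crosses at 0 mark genes with 0 counts in all 4 dKO samples. NEUROG2 to EMX1 lie far to the right in WT and at 0.26 or below in dKO, and FOSB and NPAS4 lie left of 0 in both.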

How the data were processed

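RNA from H1-derived cells was extracted with TRIzol and sequenced on a NextSeq 500. The authors aligned reads to hg38 with HISAT2 2.0.4 and deposited HTSeq 0.6.0 raw counts per Ensembl gene, 1 file per sample. The annotation release is not given in the sources used here, and 57532 of 58302 IDs were found in GENCODE v44. Genes averaging 20 counts or more across the 12 samples were fitted with edgeR 4.0.16 (TMM, robust quasi-likelihood, 6 groups, no covariate) in R 4.3.3, and DESeq2 1.42.0 was an alternative. Alternatives were another scaling, count filters, equal depth, GC content and gene length correction, a replicate block, the 4 samples alone and leaving out each sample. The test was tried on simulated data. RPKM used GENCODE exonic lengths, and promoters came from RefSeq GRCh38.p14.

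Members and gene lists were chosen with earlier results of these data known. Named genes were KDM6A and KDM6B, the 10 highest and 10 lowest log2 fold changes among called genes with a mean of at least 20 CPM in the higher group, up to 4 called members per list and direction with at least 10 CPM there, and members given as not called. APCDD1, ARC, BCL11B, DLX1, DLX2, DLX5, DLX6, DUSP1, EFNB3, EMX2, FEZF2, FOS, FOXP2, FZD7, GAD2, GLI2, ISL1, JUNB, KDR, LGR4, LHX2, NEUROG1, NFIB, NR4A1, NRP1, NTRK2, NTRK3, PCSK1, PTPRZ1, SLC1A3, VAX1 and VIM were named after their values were seen. Some genes of these lists are not reported here.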

Additional observations from a re-analysis of the deposited data

Results flagged for a closer look

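These results are singled out because the difference between passage 4 and day 28 was not the same in WT and dKO cells, by the contrast of both differences in edgeR's quasi-likelihood test. It was called for 1287 genes with the higher and 1273 with the lower value in WT. The 20 most extreme genes were picked by their WT difference, which is part of this contrast. Large values were thus likely beforehand and are no test. Of the 977 genes called higher in WT-NPC-P4, 769 were also called higher in this contrast. Of the 1102 called higher in WT-D28, 658 were called lower in it. Over all tested genes, 19.0% were called in either direction. Among the 20 most extreme genes, WT minus dKO was 14.21 on the log2 scale for NEUROG2, 12.50 for BHLHE22, 12.48 for EOMES, 11.08 for TFAP2C, 11.01 for EMX1, 9.46 for TBR1 and 9.002 for ENSG00000224076, which lies inside the TBR1 interval. It was -9.47 for HMX3, -7.92 for INSRR, -7.69 for SST, -7.11 for LHX6, -6.79 for LHX8, -3.60 for PTPRB, -3.40 for TH and -2.82 for FOSB. Fitted values of genes with counts at or near 0 in a group depend on the prior count and give no bound on a fold. The dKO-D28 samples differed more from each other than other replicates (chi-square per degree of freedom 14.1), and each of the 15 genes named was also called without either of them. No group held 4 samples, so no sample could be tested as an outlier.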

How the results depend on the processing

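The counts of 977 and 1102 genes moved by over 1.5 times under 3 settings. A fold above 4 left 303 and 262, and 476 and 308 for the WT minus dKO difference. Lowering the filter to 1 count in any sample gave 1740 higher in WT-D28. Requiring 10 counts in every sample gave 593 and 509, and 729 for the lower difference, and it also removes genes near 0 in 1 culture, which left 10 cortical genes, 5 of them higher in WT-NPC-P4, and 7 GABAergic genes, 5 higher in WT-D28 and 2 higher in WT-NPC-P4. Leaving out 1 of the 4 samples gave 865 to 996 genes higher in WT-NPC-P4 and 904 to 1039 higher in WT-D28, and leaving out 1 of the 8 WT or dKO samples gave 1101 to 1448 and 953 to 1543 for the difference. Same-numbered samples did not deviate together (correlation 0.0818), so the replicate number as a block pairs only by number. The replicate block gave 970 and 1098, and with GC content and gene length correction 957 and 941, against 961 and 927 for that correction alone and 985 and 981 for DESeq2. Similar totals did not mean the same genes. The correction alone kept 1572 of the 2079 main calls (75.6%), and 19 of 30 list medians moved by their SD between replicates or more. The study also normalized by GC content and gene length. Over all settings, 14 of 389 alternative list medians changed sign. The share of calls higher in WT-NPC-P4 was 47.0%, ranging from 43.5% to 53.8%. Replicates were 2 per group, WT-NPC-P4 was sequenced less deeply than WT-D28, and changes near 2-fold were mostly missed in simulated counts.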

Other observations

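Some of the larger differences lay in genes of no list. They were chosen after their values were seen and are given without a test of their own beyond the fit over all genes. RELN, the secreted protein that guides migrating cortical neurons and that Cajal-Retzius cells make, had 183 and 184 CPM in WT-NPC-P4 and 10.2 and 8.55 CPM in WT-D28, a log2 difference of 4.30 (standard error 0.15, edgeR adjusted p = 4.74e-12). LRP4, a receptor of the LDL receptor family that takes part in Wnt and agrin signalling, had 237 and 231 CPM in WT-NPC-P4 and 3.96 and 3.92 CPM in WT-D28, a log2 difference of 5.88 (standard error 0.21, edgeR adjusted p = 1.23e-11). PTN, a growth factor of radial glia and a ligand of PTPRZ1, had 1753 and 1715 CPM in WT-NPC-P4 and 123 and 131 CPM in WT-D28, a log2 difference of 3.77 (standard error 0.28, edgeR adjusted p = 7.80e-06), and NCAN, a chondroitin sulfate proteoglycan of the neural matrix, had 1434 and 1544 CPM in WT-NPC-P4 and 350.2 and 329.6 CPM in WT-D28, a log2 difference of 2.13 (standard error 0.13, edgeR adjusted p = 3.01e-09). The ligand PTN and its receptor PTPRZ1 were thus both higher in WT-NPC-P4. The POU factors POU3F2 and POU3F4, which act in cortical progenitors and in ventral forebrain, were also higher there, at 2.53 and 5.67. ID2, a dominant-negative bHLH partner, had 205 and 192 CPM in WT-NPC-P4 and 20.9 and 24.1 CPM in WT-D28, a log2 difference of 3.13 (standard error 0.18, edgeR adjusted p = 3.61e-09). In the other direction, FGF14, an intracellular regulator of sodium channels, had 4.68 and 10.02 CPM in WT-NPC-P4 and 129 and 129 CPM in WT-D28, a log2 difference of -4.08 (standard error 0.22, edgeR adjusted p = 8.42e-10). MAGEL2 and NDN, neighbouring imprinted genes with known roles in the hypothalamus, were both higher in WT-D28, MAGEL2 with 13.03 and 20.8 CPM in WT-NPC-P4 and 250.2 and 244 CPM in WT-D28, a log2 difference of -3.84 (standard error 0.35, edgeR adjusted p = 2.86e-05), and NDN with 109 and 88.4 CPM in WT-NPC-P4 and 356 and 352 CPM in WT-D28, a log2 difference of -1.85 (standard error 0.17, edgeR adjusted p = 8.33e-07).

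Gene families assembled from symbols, also after the values were seen, gave counts against backgrounds of 7.26% and 8.19%. Of 4 nuclear factor I genes 3 were higher in WT-NPC-P4 (median 2.40), as were 3 of 4 ID genes (median 2.06). Of 36 tested potassium channel genes, 14 were higher in WT-D28 and 5 higher in WT-NPC-P4 (median -0.37). Of 29 collagen chains 9 were higher in WT-NPC-P4 and 4 higher in WT-D28 (median 0.59). The median was 0.10 over 80 cytosolic ribosomal protein genes and also over 32 complex I subunits.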
